A study of Cucumis melo with 12 samples.

Results

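The genes described here are the melon genes that the authors listed for seeds but not for radicles. They were taken as the identifiers starting with MELO3C that stand on the mock seed list and are missing from the mock radicle list, without 5 such genes that were set aside by name. These are allene oxide synthase (MELO3C018413), a proline-rich protein (MELO3C005540) and 3 Gag/pol genes (MELO3C027784, MELO3C028181 and MELO3C034502). The rule gave 103 genes, out of 153 identifiers listed for seeds and 3256 listed in any group. It used the presence of an identifier on a list and no listed value. None of the 103 genes was on the high-dose or low-dose radicle list either (0 on each).

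Melon seeds were treated with the plant-associated bacterium *B. velezensis* FZB42 at a high dose, with the same strain at a low dose, or with distilled water (mock), and RNA was sequenced from the seeds and from 5-day-old radicles. Each of these 6 groups had 2 libraries, 12 in all, which the methods call biological duplicates. The melon variety in every group was Rochet Panal, and the groups differed by inoculum and tissue. The labels name polyadenylated RNA, whereas the methods describe rRNA-depleted directional libraries. The authors deposited 1 value per gene and group for selected genes only, so there is no spread between libraries, no test was run and no difference between genes or doses below could be set against replicate error. The values are called FPKM, but their scale is not stated. In mock radicles, 46 genes share the value 1.10, which FPKM of genes of different lengths would not give, and high-dose radicles have a total of 12656108, possible for FPKM only if transcripts averaged 79.0 bp or less. The seed lists themselves show neither sign clearly: no value above 0 recurred on them (0 recurring values on each), and their totals as FPKM would allow a mean transcript of up to 548 bp for the high-dose list and 427 bp for the low-dose list, over the listed genes alone. All lists were treated alike, as a relative signal that may not be divided by gene length, and an order of genes below is an order of listed values, not of transcript numbers. Read counts are not given in the lists, so the depth behind each value is unknown.

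A dry seed carries messenger RNA stored during its maturation. On imbibition this store is partly translated and partly degraded, and new transcripts for respiration, reserve use and cell wall loosening appear before the radicle breaks through the seed coat. A radicle of several days is a growing root with its own transcript population. *B. velezensis* makes cyclic lipopeptides (surfactin, fengycin and the iturin-type bacillomycin D) that act on membranes and can be sensed by plants. A gene can be missing from the radicle lists because it was silent there or because its level did not differ from mock by the authors' criteria, and the lists do not separate these cases. The 103 genes are therefore genes selected in seeds and not in radicles, which is not the same as genes expressed in seeds alone.

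None of the 103 identifiers was found among the names, locus tags and accessions of the RefSeq gene table for assembly USDA_Cmelo_AY_1.0 (0 of 3256 listed identifiers were), and none is among the MELO3C identifiers that the paper's supplement describes. They are given by identifier only, with no function, position or sequence.

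The genes listed for seeds only were mostly on the low-dose list. Of the 103 genes, 8 were on the high-dose list (7.77%) and 97 on the low-dose list (94.2%). Over all 153 identifiers listed for seeds, the shares were 20.9% (32) and 85.6% (131), so most were on the low-dose list in any case. By exclusive membership, 6 were on the high-dose list only, 95 on the low-dose list only and 2 on both. Among the 50 other identifiers listed for seeds, 24 were on the high-dose list (48.0%) and 34 on the low-dose list (68.0%). That group is made up of 40 melon genes that are also on the mock radicle list, 5 loci with an XLOC label in place of a melon gene name, and the 5 genes set aside. Among the 40 genes of both tissues alone, 17 were on the high-dose list (42.5%) and 29 on the low-dose list (72.5%). Each of the 5 genes set aside was on the high-dose list, and with them the count on the high-dose list only is 10 rather than 6. Read from the side of the lists, the 103 genes supplied 25% of the 32 high-dose genes and 74.0% of the 131 low-dose genes. Every one of them was on at least one dose list. The rule fixed this, because all 153 identifiers on the mock seed list were on a dose list. These shares describe the authors' selection and were not tested.

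**Figure D1:**
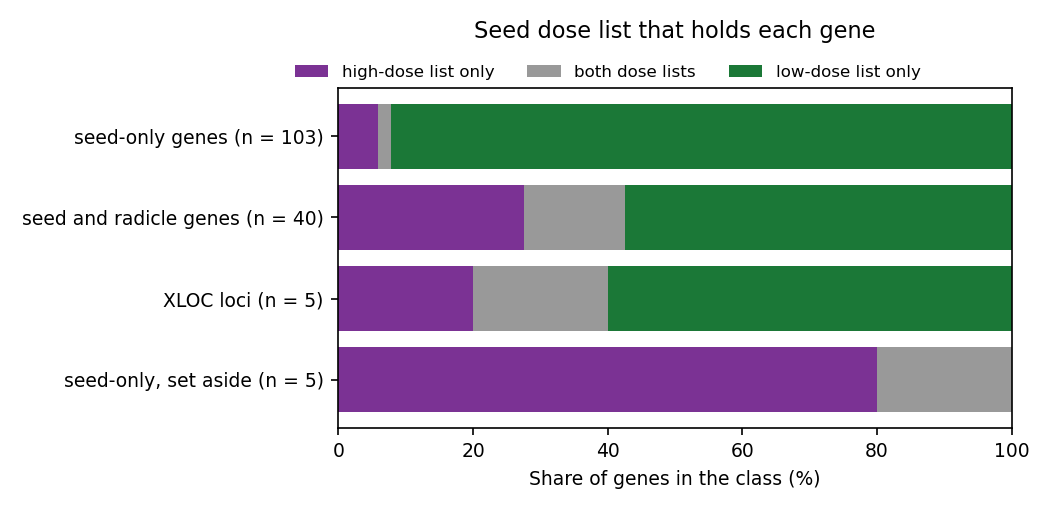
Share of genes (%, horizontal axis) on the high-dose list only, on both dose lists and on the low-dose list only, for the 4 classes of identifiers listed for seeds. Of the 103 seed-only genes, 6 were on the high-dose list only and 95 on the low-dose list only, against 11 and 23 of the 40 genes listed in seeds and radicles.

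The mock seed list gave no independent value for these genes. For all 97 genes on the low-dose list it repeats the low-dose value, and for the 6 genes on the high-dose list only it repeats the high-dose value, within a relative tolerance of 1e-06. The 2 genes on both lists carry the low-dose value in the mock list. No difference between treated and mock seeds is given for that reason, and whether a gene was selected for being above or below mock cannot be read from the lists.

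In high-dose seeds, the 8 genes covered a wide range with a single gene far above the rest. MELO3C011405 was listed at 1171526. It was followed by MELO3C006280 at 2388, MELO3C014741 at 2031 and MELO3C009615 at 1511. The next value below MELO3C011405 was thus 491 times smaller. Lower on the list were MELO3C023540 at 1024, MELO3C023354 at 966, MELO3C023435 at 666 and MELO3C031673 at 15.1. The 6 genes between the extremes lay near the middle of the high-dose list, from rank 14 (MELO3C006280) to rank 23 (MELO3C023435) of 32, while MELO3C031673 was at rank 29. None of the 8 genes was listed at 0. Their median was 1267, against 1894 for the 24 other genes of that list, 2 of which were listed at 0.

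MELO3C011405 had the highest value of all 6 deposited lists. The next highest single value of any list was 647203, of MELO3C033692 in low-dose radicles, and whether the lists were normalized together is not stated. In high-dose seeds MELO3C011405 made up 64.2% of the sum of the 32 listed values. Between 10000 and 100000 there were 0 seed-only genes on the high-dose list, whereas 7 of the other 24 genes were in that range.

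In low-dose seeds, values of the 97 genes ranged from 0 to 428722, with a median of 1195 and quartiles of 474 and 2588. The 5 highest were MELO3C012888 at 428722, MELO3C011405 at 402914, MELO3C012886 at 367384, MELO3C025418 at 256235 and MELO3C011368 at 152229. A sixth gene, MELO3C024414, named after its value was seen because it closes this group, was listed at 129170. These 6 genes stood apart: the value after them was 24739 (MELO3C002450), 5.22 times below MELO3C024414, and no gene of the low-dose list outside the 103 reached 100000 except 1, listed at 235360. The 6 genes held 74.1% of the sum of all 131 low-dose values and 88.9% of the sum over the 97 genes. Only MELO3C011405 among them was also on the high-dose list. For the other 5 there is no high-dose value, which does not mean that they were at 0 there.

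Most of the low-dose genes were of intermediate value. Of the 97, 35 lay between 100 and 1000 and 46 between 1000 and 10000, with 5 between 10000 and 100000 and the 6 above that. At the lower end, 5 genes were under 100 (5.15%), as were 5 of the 34 other genes on the list (14.7%). The lowest value above 0 was that of MELO3C025659 at 1.08, followed by MELO3C024210 at 2.23 and MELO3C012246 at 66.3. The first 2 of these are far below the third, and the number of reads they rest on is not known. MELO3C007627 was the only seed-only gene listed at 0, on the low-dose list, and no fold is given for it.

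**Figure D2:**
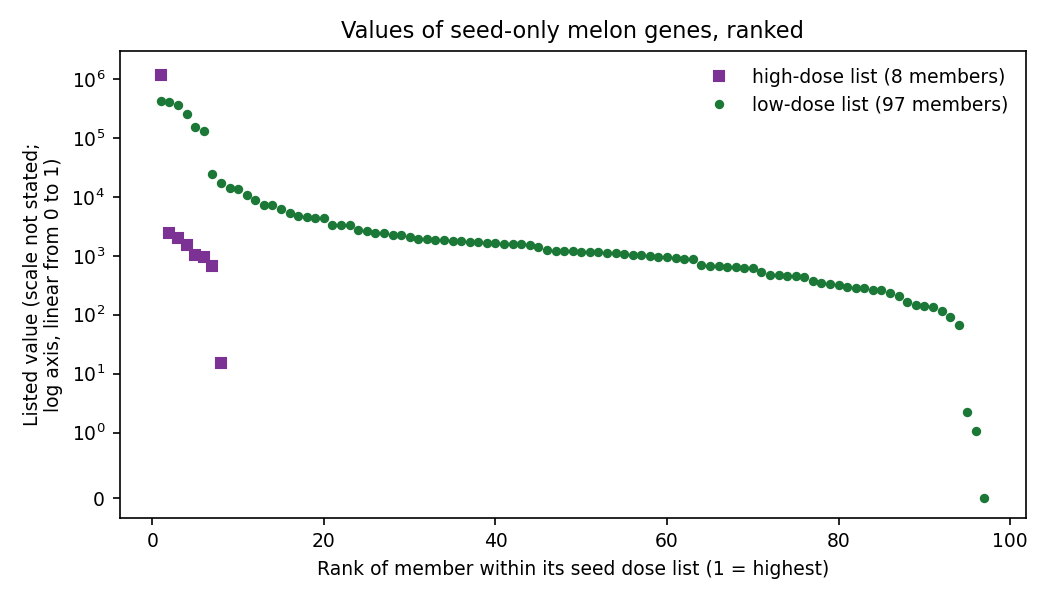
Listed value (vertical axis, unstated scale, logarithmic above 1 and linear from 0 to 1) of each seed-only gene by its rank within the high-dose list (squares, 8 genes) and the low-dose list (circles, 97 genes). A single high-dose gene at 1171526 and 6 low-dose genes from 129170 to 428722 stand above the others, and MELO3C007627 is at 0.

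The seed-only genes ran from near the bottom to the top of each list. They were placed by mid-rank as a percent of the genes on the same list. A factor common to a list does not change this position, but division by gene length could. Their median position was 48.4 on the high-dose list and 46.2 on the low-dose list, extremes included. The low-dose position is held near the middle by construction, since these genes are 74.0% of that list. On the high-dose list 4 of 8 seed-only genes were above the middle, and on the low-dose list 44 of 97. Genes listed in both tissues had a median position of 70.3 on the high-dose list (17 genes) and 62.2 on the low-dose list (29 genes). The median listed value in low-dose seeds was 1195 for seed-only genes and 1803 for genes of both tissues. The classes overlapped on each list, and genes are not independent replicates, so the positions are given as a description.

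**Figure D3:**
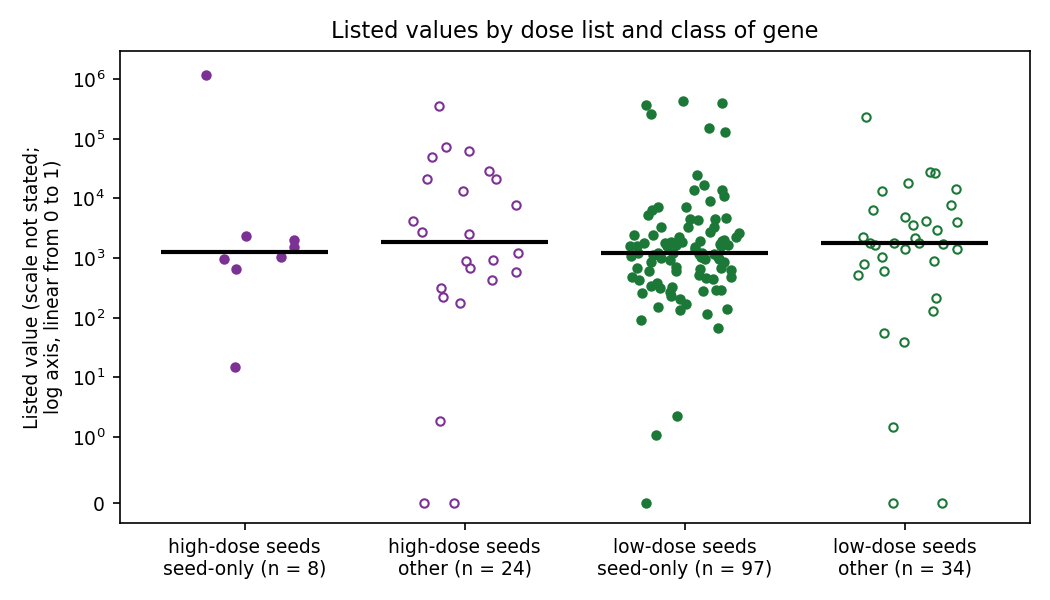
Listed values (vertical axis, unstated scale, logarithmic above 1 and linear from 0 to 1) of seed-only genes (filled) and all other listed genes (open) in high-dose and low-dose seeds, 1 point per gene, with horizontal scatter for visibility and the median as a black line. Medians were 1267 and 1894 in high-dose seeds and 1195 and 1759 in low-dose seeds, and the classes overlap.

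Only MELO3C011405 and MELO3C009615 were on both dose lists, so only for them could the doses be compared, on lists whose common scale is assumed. MELO3C011405 was listed at 1171526 in high-dose seeds and 402914 in low-dose seeds. The high-dose value was 2.91 times the low-dose value, a log2((high + 1)/(low + 1)) of 1.54. MELO3C009615 was listed at 1511 in high-dose seeds and 870 in low-dose seeds, which is 1.74 times and a log2 of 0.80. Both genes had the higher value at the high dose, and MELO3C011405 alone passed a log2 of 1. That direction was common on these lists. Of the 10 identifiers on both dose lists, 40% were past a log2 of 1 in favour of the high dose and 10% in favour of the low dose, and 7 of 10 had the higher value at the high dose. Those 10 include the 2 genes. Among the 8 others, 5 were higher at the high dose and 3 lower. Of these 8, 3 were past a log2 of 1 in favour of the high dose and 1 in favour of the low dose. MELO3C011405 had the largest log2 of the 10 and MELO3C009615 the fifth largest. The single gene past 1 in favour of the low dose was allene oxide synthase, one of the genes set aside.

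The dose difference of both genes depended on how the lists were scaled to each other. Dividing out the median ratio of the 10 shared identifiers left a log2 of 0.83 for MELO3C011405 and 0.09 for MELO3C009615. Neither then passed 1. These 10 were selected by the authors at both doses and include the 2 genes. The scaling therefore cannot tell a scale of the lists from a dose difference that the 10 share. MELO3C011405 was at rank 1 of 32 in high-dose seeds and at rank 2 of 131 in low-dose seeds, behind MELO3C012888, which is not on the high-dose list. MELO3C009615 was at rank 16 of 32 in high-dose seeds and at rank 87 of 131 in low-dose seeds. These ranks are taken over lists of different genes and are given side by side only.

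**Figure D4:**
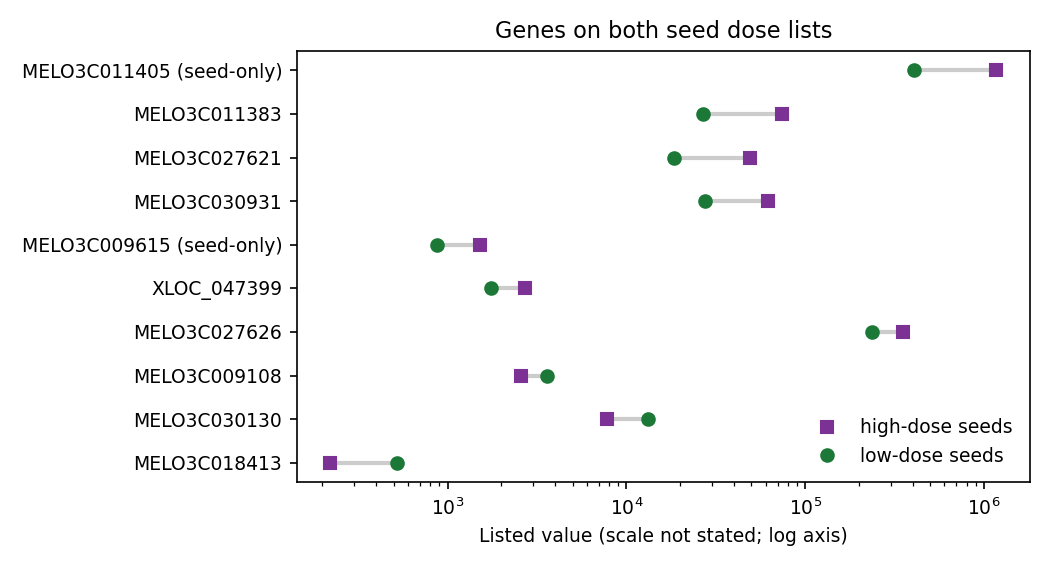
Listed values (horizontal logarithmic axis, unstated scale) in high-dose seeds (squares) and low-dose seeds (circles) for the 10 identifiers on both dose lists, ordered by their log2 ratio with the largest at the top. The 2 seed-only genes are marked: MELO3C011405 is first with a log2 of 1.54 and MELO3C009615, with 0.80, is the fifth.

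Some of the genes had identifiers that differ by 3 or less. There were 6 such pairs, with 12 of the 103 genes (11.7%), against 2 pairs with 4 of the 40 genes listed in both tissues (10%). Such a share grows with the size of a set, so these shares cannot be compared directly. All 6 pairs lay on the low-dose list only, as did 95 of the 103 genes. MELO3C012886 and MELO3C012888, listed at 367384 and 428722, were the closest pair in value, 1.17 times apart and both among the 3 highest of the list. At the other end, MELO3C014646 was listed at 474 and MELO3C014647 at 17038, 36.0 times apart. This second pair was named after its values were seen. Identifier numbers are not coordinates, and whether the genes of a pair are neighbours or near-identical copies that share reads was not tested.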

How the data were processed

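The series holds 12 RNA libraries from melon tissue, 2 in each of 6 groups by the submitters' titles. The provider of sequencing aligned reads to the DHL92 v4 genome according to the methods. Bowtie2 and SAMtools stand in the submitters' processing notes. The authors deposited 6 lists with 1 value per gene, combined from both libraries in a way that is not given in the sources used here. The deposited values, named FPKM, were treated as signal of unstated scale. Values under 1e-10 were taken as 0.

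The members and lists were chosen with earlier results of these data known. Counts, medians, mid-rank positions within a list and log2 ratios with a pseudocount of 1 were computed, and no test was run. Grouping of genes by description was planned and not run, because no identifier matched. Named are the genes on both dose lists, the 5 highest and 3 lowest above 0 on each dose list, and genes at 0, except where stated. Alternatives were the 5 genes set aside, other pseudocounts (0.1 and 10), minimums, thresholds, tolerances and scalings. The counting was tested on simulated data. Computation was in pandas 2.3.3 and numpy 2.4.6 under Python 3.11.15, with figures from matplotlib 3.10.9.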

Additional observations from a re-analysis of the deposited data

How the results depend on the processing

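No paired analysis was possible because each group has 1 combined value per gene, and for the same reason the replicate block and leaving out each replicate were not run. A value was taken as kept when it stayed within 1.5 times. Of 65 values recomputed under alternatives, 55 were kept and 10 moved. With the 5 genes set aside, 10 genes were on the high-dose list only, and 1 gene was past a log2 of 1 in favour of the low dose, against 0 without them. Taking only an exact 0 as 0 left 0 genes at 0 on the low-dose list, since the gene concerned carries a value under 1e-10. Median ratio scaling, quantile normalization and a log2 threshold of 2 each left 0 genes past the threshold between doses. Quantile normalization gave a log2 of 0.00 for MELO3C011405 and MELO3C009615, which is fixed by rank because each held the same rank among the 10 shared identifiers at both doses. Median ratio scaling gave 0.83 and 0.09, with a factor taken from the 10 shared identifiers, which include both genes. Requiring absence from each of the 3 radicle lists left every count and median as it was. That outcome was fixed, because the setting removed no gene, and its values are among the 55 kept. Other values among the 55 could not move either. The counts on each dose list do not use the tolerance, so a tolerance of 0.001 could not change them. The log2 values of MELO3C011405 and MELO3C009615 do not depend on which genes are members, so adding the 5 genes could not change them. Without read counts in the lists, what depth limits was not computed.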
